A study of Anopheles arabiensis with 20 samples.

Results

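ATP6 and ATP8 are the mitochondrial genes for subunits a and 8 of the ATP synthase, and they were taken by their identifiers, ASK67_gp09 (ATP6) and ASK67_gp10 (ATP8), as 2 of the 13867 genes in a count table of the malaria mosquito *Anopheles arabiensis*. They belong to the 13 protein-coding genes among 37 mitochondrial genes in the table. Both passed the filter on low counts, which kept 11018 genes. RNA came from 20 pools of 10 whole adult females each, 3 to 5 days old and without a blood meal, with 4 pools per group. ASN (Asendabo), CHW (Chewaka) and TOL (Tolay) were field populations, collected as larvae in south-western Ethiopia, reared to adults on site and recorded in the labels as resistant to deltamethrin and DDT. SEK (Sekoru, Ethiopia) and MOZ (Mozambique) were laboratory strains recorded as susceptible. All 5 groups were reared in a similar way, and no insecticide treatment of the sequenced females is given. The p-values measure the spread between pools of 1 population or strain.

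The ATP synthase of the inner mitochondrial membrane makes ATP from ADP and phosphate with the proton gradient that the respiratory chain builds. Subunit a, the product of ATP6, forms part of the path that protons take through the membrane, next to the rotating ring of c subunits. The product of ATP8 is a short membrane protein of the same stator, and the other subunits are encoded in the nucleus. Mitochondrial genes are read as long transcripts that are cut and polyadenylated, and in insects the reading frames of ATP8 and ATP6 overlap by a few bases and are usually found on 1 shared messenger RNA. In the RefSeq annotation of the assembly AaraD3, ATP8 is followed directly by ATP6 and then by COX3, and 2 tRNA genes lie between COX2 and ATP8.

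The pair was unequal in depth. ATP6 had 3606 to 292905 counts per library, and ATP8 had 8 to 238. The fewest ATP8 counts were in MOZ, with 55 over its 4 libraries, against 381 to 677 over the 4 libraries of each other group. How reads that touch 2 neighbouring genes were counted is not given in the sources used here, so the counts of such overlapping genes are uncertain. ND4L, a complex I subunit gene that is also short and overlaps its neighbour ND4 in insects, likewise had few counts, 47 to 832 per library. The 2 tRNA genes between COX2 and ATP8 had 0 counts in all 20 libraries, which allows each a share of up to 2.46e-05% in the smallest library, a limit for counting error only. They were among 12 of the 22 mitochondrial tRNA genes that were never counted in these polyA-selected libraries. Library totals ran from 12205530 to 21516390 counts. At these totals the 95% Wilson interval of the ATP6 share in ASN replicate 1, a share of 1.22% of all counts, ran from 1.21% to 1.22%. That of the ATP8 share in MOZ replicate 4, 5.65e-05%, ran from 2.86e-05% to 0.000111%.

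ATP6 was far higher in ASN and TOL than in the other groups. Levels are given as CPM, counts scaled to the size of the library, with TMM factors that rest on the assumption that most genes do not differ. In the ASN libraries ATP6 had 14600, 3856, 14359 and 13006 CPM, in replicate order. In the CHW libraries it had 1383, 1150, 2248 and 536 CPM, and in the TOL libraries 19398, 7652, 14813 and 10148 CPM. The SEK libraries had 1136, 1652, 623 and 740 CPM, and the MOZ libraries 575, 251, 621 and 373 CPM. Every ASN and TOL library lay above every CHW, SEK and MOZ library, although replicate 2 was the lowest of both ASN and TOL. CHW and SEK overlapped, and CHW replicate 4 fell within the range of MOZ. The 13 mitochondrial protein-coding genes together moved with it, at 13.5% ± 1.83 of all counts for ASN, 5.60% ± 2.74 for CHW, 14.7% ± 2.06 for TOL, 4.23% ± 1.08 for SEK and 1.40% ± 0.741 for MOZ (SD, n = 4 each). By group means, so did the ribosomal RNA gene ASK67_gr01. Its mean log2 CPM was 10.44 for ASN, 8.81 for CHW, 10.31 for TOL, 8.65 for SEK and 7.66 for MOZ. Single libraries did not always follow. MOZ replicate 2, the lowest of its group in ATP6, was the highest of it in ASK67_gr01, at 8.07. CHW replicate 3, the highest of its group in ATP6, had 8.29, in a CHW range of 8.05 to 9.56. Group means of the other ribosomal RNA gene, ASK67_gr02, are not given. ATP6 as a share of the counts of the 13 genes is compared between groups below. The part of the 13 genes together, or of ASK67_gr01, in the ATP6 levels was not tested.

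ATP8 followed another order, with MOZ low and the other groups together. It had 8.06, 7.43, 8.91 and 6.76 CPM in the ASN libraries, 5.74, 4.91, 10.4 and 2.502 CPM in the CHW libraries, and 9.80, 14.05, 16.001 and 5.13 CPM in the TOL libraries. The SEK libraries had 6.64, 13.1, 2.60 and 5.69 CPM. The MOZ libraries had 0.887, 0.627, 1.01 and 0.502 CPM, all below every library of the other 4 groups. Any 2 of the groups ASN, CHW, TOL and SEK overlapped.

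**Figure D1:**
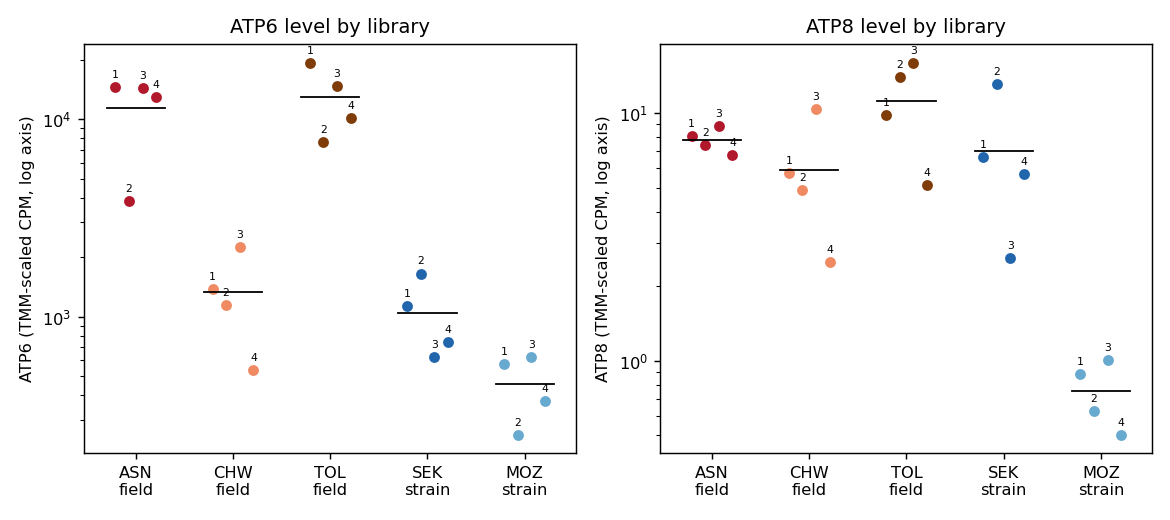
TMM-scaled CPM (log axis) of ATP6 (left) and ATP8 (right) in each library, by group, with the replicate number above each point and a bar at the mean of the 4 libraries. ATP6 lay between 3856 and 19398 CPM in ASN and TOL and between 251 and 2248 CPM in the other groups, whereas ATP8 was low only in MOZ, at 0.502 to 1.01 CPM.

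The design asks first how the resistant field populations differ from the susceptible strains. Over the means of groups, ATP6 was higher in the field populations by 3.08 on the log2 scale (SE 0.327, edgeR adjusted p 1.33e-06), with 8596 ± 6623 CPM in the 12 field libraries and 746 ± 450 CPM in the 8 strain libraries (mean ± SD). ATP8 was higher by 1.78 (SE 0.312, edgeR adjusted p 0.00019), with 8.31 ± 3.87 CPM in the field libraries and 3.89 ± 4.43 CPM in the strain libraries. Both genes were called higher, which required an adjusted p (Benjamini-Hochberg) below 0.05 together with a change of at least 2-fold, against 3.91% of all genes tested. In whole mosquitoes fewer cells of a type and less RNA per cell cannot be told apart. Neither mean difference describes every group, as ATP6 in CHW and ATP8 in SEK show. The p-values of this comparison measure the spread between pools, not that between the 3 populations or between the 2 strains. Resistance cannot be told apart from field origin here, and only CHW had libraries in both sequencing runs.

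Against SEK, ATP6 was called higher in ASN and TOL, and ATP8 was called in no population. ATP6 gave 3.46 on the log2 scale (SE 0.488, edgeR adjusted p 8.61e-05) in ASN vs SEK and 3.65 (SE 0.492, adjusted p 3.54e-05) in TOL vs SEK. The share of all genes called higher was 4.87% in ASN vs SEK and 5.84% in TOL vs SEK. In CHW vs SEK, where 3.66% of genes were called, ATP6 differed by 0.36 (SE 0.444, edgeR adjusted p 0.668). ATP8 differed by 0.16 (SE 0.41) in ASN, -0.25 (SE 0.417) in CHW and 0.69 (SE 0.408) in TOL, with edgeR adjusted p-values of 0.797, 0.761 and 0.214 in that order. The value for ASN changed sign, to -0.10, with library totals alone, and without SEK replicate 2, the SEK library highest in ATP8, TOL vs SEK became 1.17 with an adjusted p of 0.04.

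Against MOZ, ATP6 and ATP8 were called higher in all 3 populations. ATP6 was higher by 4.65 on the log2 scale (SE 0.516, edgeR adjusted p 1.33e-06) in ASN, 1.55 (SE 0.454, adjusted p 0.0127) in CHW and 4.84 (SE 0.521, adjusted p 1.35e-06) in TOL. ATP8 was higher by 3.32 (SE 0.511, edgeR adjusted p 3.87e-05) in ASN, 2.91 (SE 0.516, adjusted p 0.00031) in CHW and 3.85 (SE 0.51, adjusted p 1.09e-05) in TOL. The shares of all genes called higher were 8.28% for ASN, 4.68% for CHW and 7.73% for TOL, and these comparisons share the 4 MOZ libraries. Such calls against MOZ were not particular to ATP6 and ATP8, as most of the 13 mitochondrial genes for proteins had them (values below). In ASN and TOL the larger of the 2 differences was that of ATP6, and in CHW it was that of ATP8. The call of ATP6 in CHW vs MOZ was lost without CHW replicate 3, at 1.17 with an adjusted p of 0.0579.

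The strains differed from each other in both genes. ATP6 was lower in MOZ than in SEK by -1.19 on the log2 scale (SE 0.45, edgeR adjusted p 0.0401), and ATP8 by -3.15 (SE 0.512, adjusted p 9.32e-05), in a comparison with 6.29% of genes called lower. Averages of ATP6 were 454.9 ± 173 CPM in MOZ and 1038 ± 464 CPM in SEK, and those of ATP8 were 0.756 ± 0.232 CPM in MOZ and 7.02 ± 4.42 CPM in SEK (mean ± SD, n = 4 each). The ATP6 call was near the threshold, and it was lost on leaving out MOZ replicate 2 (-0.99, adjusted p 0.107), MOZ replicate 4 (-1.11, adjusted p 0.0911), SEK replicate 1 (-1.15, adjusted p 0.0716) or SEK replicate 2 (-0.87, adjusted p 0.144). The ATP8 call held without any 1 library.

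Among the field populations, ATP6 set CHW apart from ASN and TOL, and ATP8 was called nowhere. ATP6 was higher in ASN than in CHW by 3.11 on the log2 scale (SE 0.48, edgeR adjusted p 0.000343), where 2.82% of genes were called higher. This ranked 10 from the highest of 11018 genes, the most extreme rank of ATP6. In the other comparisons that called ATP6 higher, its rank ran from 39 (ASN vs MOZ) to 291 (CHW vs MOZ). In CHW vs TOL, with 2.72% of genes called lower, it was lower by -3.29 (SE 0.484, edgeR adjusted p 0.000559). ASN and TOL differed by -0.18 (SE 0.443, edgeR adjusted p 0.866), with 1.39% of genes called. ATP8 differed by 0.41 (SE 0.415) in ASN vs CHW, -0.94 (SE 0.413) in CHW vs TOL and -0.53 (SE 0.406) in ASN vs TOL, with edgeR adjusted p-values of 0.577, 0.14 and 0.506. Without CHW replicate 3, the CHW library highest in ATP8, CHW vs TOL became -1.37 with an adjusted p of 0.044.

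In all, ATP6 was called in 8 of the 10 comparisons between groups and ATP8 in 4, which are the 4 with MOZ. ND4L, also a short gene with few counts, was called in those same 4 and in no other of the 10. Its log2 fold changes were 2.24 in ASN vs MOZ, 2.18 in CHW vs MOZ, 2.84 in TOL vs MOZ and -1.96 in MOZ vs SEK. The order of mean ATP6 levels was TOL, ASN, CHW, SEK and MOZ, in which TOL and ASN, and CHW and SEK, did not differ beyond their spread. The order of mean ATP8 levels was TOL, ASN, SEK, CHW and MOZ, in which no neighbours but CHW and MOZ were called.

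**Figure D2:**
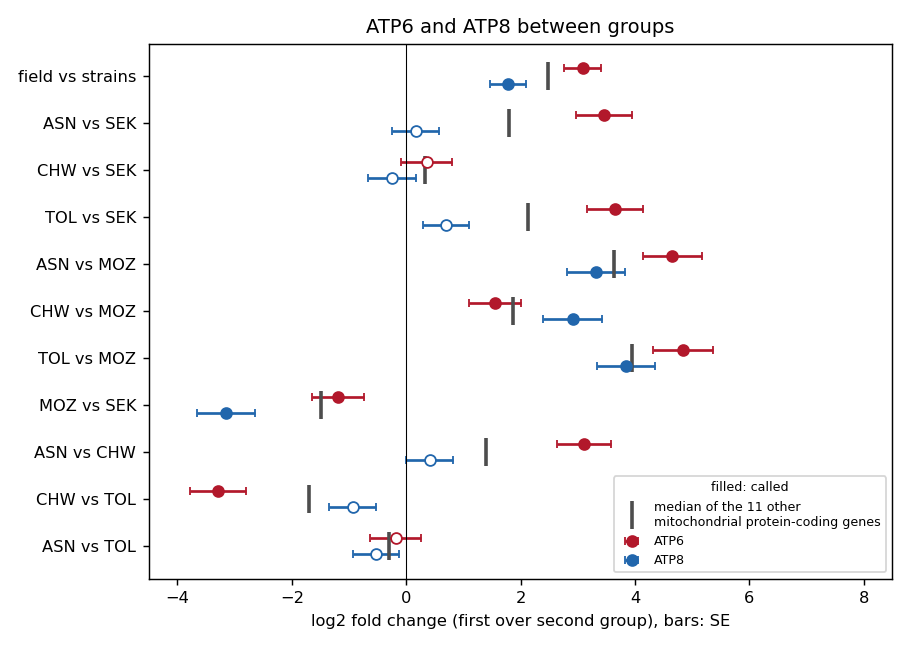
Log2 fold change of ATP6 (red) and ATP8 (blue) in each comparison, first group over second, with bars for the SE and filled points for called genes, and a grey mark at the median of the 11 other mitochondrial protein-coding genes. ATP6 lies farther from 0 than that median in each comparison of ASN or TOL with CHW or a strain, and ATP8 lies farthest from 0 in the comparisons with MOZ.

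The sequencing run was nearly tied to the groups. By the titles, the first run held ASN, TOL and the CHW replicates 1 and 2, and the second held the other CHW replicates, SEK and MOZ, so that ASN or TOL and a strain never met within a run. CHW alone links the runs, and with run as a covariate ATP6 was at 3.60 in ASN vs SEK (edgeR adjusted p 0.0155) and 3.78 in TOL vs SEK (adjusted p 0.00835). ATP6 and ATP8 were then called in 8 and 4 comparisons, as without it, while the number of all genes called was 526 in ASN vs SEK, against 840 without the covariate, and 1107 in ASN vs MOZ, against 1737. Within the first run ATP6 was higher by a log2 fold change of 3.18 (edgeR adjusted p 0.00619) in ASN vs CHW, and lower by -3.35 (adjusted p 0.00736) in CHW vs TOL. Within the second run ATP8 was higher by 3.03 (edgeR adjusted p 0.0114) in CHW vs MOZ, while ATP6, at 1.59, missed the threshold (adjusted p 0.0617). Within the second run MOZ was lower than SEK by -3.16 (edgeR adjusted p 0.00165) in ATP8, and by -1.18 in ATP6, which also missed it (adjusted p 0.0567). Between the 2 runs of CHW, second over first, ATP6 differed by 0.14 (SE 0.643) and ATP8 by 0.26 (SE 0.61), each with an edgeR adjusted p of 1, in a comparison where 0% of 11352 genes were called by edgeR, 1 gene by DESeq2, and 593 genes had an unadjusted p below 0.05. Those values rest on single libraries, and without CHW replicate 3 they were -1.24 for ATP6 and -1.09 for ATP8.

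The number of ATP6 counts per ATP8 count compares the 2 genes within a library, where the scaling of libraries has no part. It is a ratio of counts, not of levels, since the genes differ in length and the counting of reads that touch both is not given. A difference between groups in this ratio is therefore one of counts, and whether the transcripts differ was not tested. The ratio was 1812, 519, 1612 and 1924 in the ASN libraries, 241, 234, 216 and 214 in the CHW libraries, and 1979, 545, 926 and 1977 in the TOL libraries. It was 171, 126, 239 and 130 in the SEK libraries and 648, 401, 616 and 742 in the MOZ libraries. CHW was the narrowest group, and its 4 exact 95% intervals for counting error all overlapped, the widest running from 162 to 289. In MOZ the few ATP8 counts left wide intervals, from 376 to 1720 in replicate 4.

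The ratio differed between groups by more than the spread between libraries in 6 of the 10 comparisons (exact 2-sided permutation test on log2 ratios, adjusted p 0.0476 in each). With 4 libraries against 4 the smallest p the test can give is 0.0286, which each of the 6 gave. The mean log2 ratio was 10.35 ± 0.895 for ASN, 7.82 ± 0.0857 for CHW, 10.21 ± 0.909 for TOL, 7.33 ± 0.431 for SEK and 9.20 ± 0.384 for MOZ (SD, n = 4 each). ASN and TOL exceeded SEK by 3.02 and 2.88, ASN exceeded CHW by 2.53, and CHW was below TOL by a difference of -2.39. MOZ exceeded SEK by 1.87, and CHW was below MOZ by a difference of -1.38. With 10 added to each count, which weighs on the few ATP8 counts of MOZ, these were 1.13 (exact permutation test, adjusted p 0.0714) and -0.67 (adjusted p 0.127) and no longer passed. CHW vs SEK (0.49), ASN vs MOZ (1.15) and TOL vs MOZ (1.01) had an exact permutation p of 0.114 (adjusted 0.127), and ASN vs TOL one of 1. Within the first run the difference was 2.46 in ASN vs CHW and 2.32 in TOL vs CHW, each with an exact permutation p of 0.0667 (adjusted 0.1), the smallest that 4 libraries against 2 can give. Within the second run it was -1.45 in CHW vs MOZ (exact permutation p 0.0667, adjusted 0.1) and 1.87 in MOZ vs SEK (exact permutation p 0.0286, adjusted 0.0857). The adjusted p depends on how many comparisons reach the smallest p, and the number passing fell to 0 without any 1 of the 4 CHW libraries or without SEK replicate 1, 2 or 4, and with medians in place of means. It was 8 without replicate 2 of ASN and of TOL, an alternative chosen after the values were seen.

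**Figure D3:**
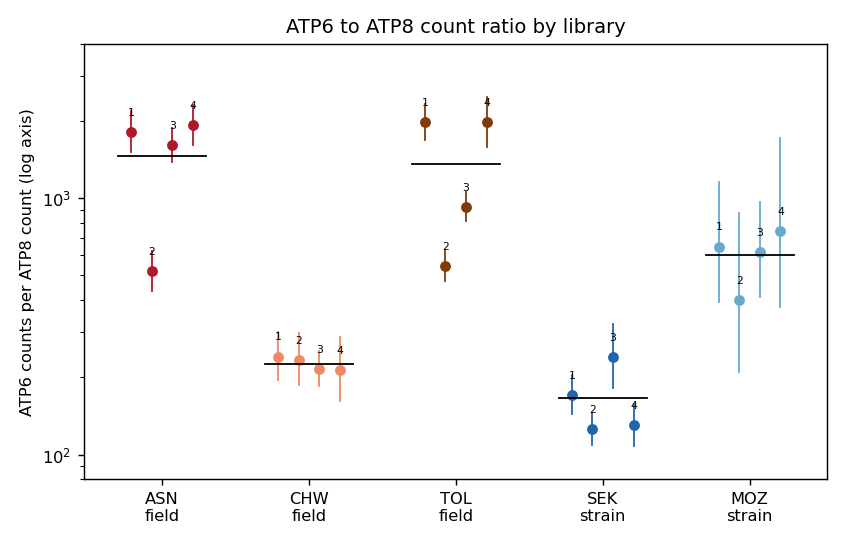
ATP6 counts per ATP8 count in each library (log axis), with exact 95% intervals for counting error, replicate numbers, and a bar at the mean of each group. The CHW libraries lie at 214 to 241, the MOZ libraries at 401 to 742, and ASN and TOL spread from 519 to 1979 with replicate 2 lowest in each.

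Set against their neighbours along the mitochondrial genome, ATP6 and ATP8 went different ways. COX3 and COX2, subunits of cytochrome c oxidase (complex IV), were higher in the field populations than in the strains by log2 fold changes of 2.59 (SE 0.306, edgeR adjusted p 4.07e-06) and 2.05 (SE 0.261, adjusted p 7.96e-06). ATP6 counts per COX3 count averaged 0.405 ± 0.167 for ASN, 0.136 ± 0.0371 for CHW and 0.387 ± 0.128 for TOL. The strains had 0.179 ± 0.0134 (SEK) and 0.22 ± 0.0541 (MOZ), each as mean ± SD of 4 libraries. Within ASN and TOL, 6 libraries lay at 0.431 to 0.506, and replicate 2 lay at 0.155 in ASN and 0.196 in TOL, inside the range of the other 3 groups, 0.0993 to 0.295. Per COX2 count, the other 3 groups ranged from 0.125 to 0.308. There ASN replicate 2 lay inside that range, at 0.224, but TOL replicate 2 lay above it, at 0.338. ATP8 counts per 1000 COX3 counts averaged 0.281 ± 0.03 for ASN, 0.599 ± 0.15 for CHW, 0.323 ± 0.113 for TOL, 1.15 ± 0.324 for SEK and 0.405 ± 0.225 for MOZ. SEK lay above all other groups in this measure, at 0.797 to 1.52, with CHW replicate 1 nearest to it at 0.76. COX3 counts per COX2 count varied less, from 0.88 to 1.73 over the 20 libraries. These neighbour ratios are given as descriptions without a test.

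**Figure D4:**
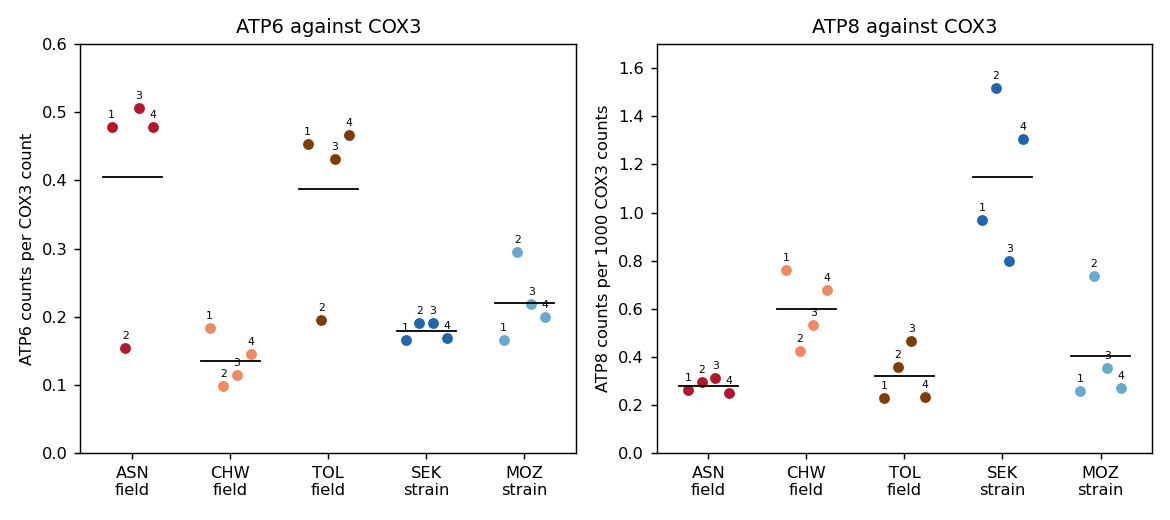
Counts of ATP6 per COX3 count (left) and of ATP8 per 1000 COX3 counts (right) in each library, with replicate numbers and a bar at each group's mean. Of the ASN and TOL libraries, 6 have 0.431 to 0.506 ATP6 counts per COX3 count while replicate 2 has 0.155 and 0.196, and SEK is highest in ATP8 per 1000 COX3 counts, at 0.797 to 1.52.

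As a share of the counts of the 13 mitochondrial protein-coding genes, ATP6 took a mean of 7.39% ± 2.78 for ASN, 2.41% ± 0.587 for CHW and 7.25% ± 2.12 for TOL. The strains had 2.65% ± 0.224 (SEK) and 4.07% ± 0.839 (MOZ), each as mean ± SD of 4 libraries. The ATP8 share was 0.00527% ± 0.000729 for ASN, 0.0106% ± 0.00227 for CHW and 0.00617% ± 0.0022 for TOL. The strains had 0.017% ± 0.00522 (SEK) and 0.0074% ± 0.00372 (MOZ). None of the 10 comparisons passed for either gene after adjustment. Their smallest exact permutation p was 0.0286 unadjusted, in 4 comparisons for ATP6 (adjusted 0.0714) and 3 for ATP8 (adjusted 0.0952), in which the libraries did not overlap. For ATP6 the 4 were ASN, TOL and MOZ above SEK, by 4.74, 4.61 and 1.43 percentage points, and CHW below TOL by a difference of -4.85 points. For ATP8 the 3 were ASN and TOL below SEK, by differences of -0.0117 and -0.0108 points, and ASN below CHW by a difference of -0.00536 points. Within the first run the ATP6 share in TOL exceeded that in CHW by 4.72 points and the ATP8 share in ASN was below that in CHW by a difference of -0.00535 points, each with an exact permutation p of 0.0667 (adjusted 0.2). Without ASN replicate 2 the number of comparisons passing for the ATP6 share was 6.

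Of the 11 other mitochondrial protein-coding genes, which encode subunits of complexes I, III and IV, 10 were called higher and 0 lower in the field populations than in the strains, where 3.91% of all genes were called higher. Their median log2 fold change was 2.48, between the 1.78 of ATP8 and the 3.08 of ATP6, and the median of all genes was -0.01. Their highest value was 2.68, for the complex I gene ND2, so that ATP6 had the largest log2 fold change of the 13 in this comparison. The lowest was 0.01, for ND6, another complex I gene. Against SEK the median of the 11 was 1.79 in ASN and 2.13 in TOL, with 9 called higher in each, against 4.87% and 5.84% of all genes, while ATP8 was not called. ND4L and ND6 were not called there either, with ND4L at 0.28 in ASN and 0.88 in TOL, and ND6 at -0.84 and -0.35. In CHW vs SEK edgeR called 0 of the 11, with 1 at an unadjusted p below 0.05, where 2818 of all 11018 genes had one, and a median of 0.34. With MOZ as the second group, the median of the 11 was 3.62 for ASN, 1.87 for CHW and 3.94 for TOL. Of the 11, edgeR gave a higher call to 10 for ASN, 8 for CHW and 10 for TOL. ATP8 lay below that median for ASN (3.32) and TOL (3.85) and above it for CHW (2.91). ATP6 lay below it for CHW (1.55) and above it for ASN (4.65) and TOL (4.84). In MOZ vs SEK 8 of the 11 were called lower, against 6.29% of all genes, with a median of -1.49 and the lowest value, -1.97, in COX1, while ATP8 stood at -3.15. In ASN vs CHW 7 of the 11 were called higher, against 2.82% of all genes, the highest being the complex I gene ND3 at 3.04. In CHW vs TOL 9 were called lower, against 2.72% of all genes, the lowest being ND3 at -3.35. In ASN vs TOL edgeR called 0 of the 13, and 0 had an unadjusted p below 0.05, where 2206 of all genes had one.

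Patterns most like each member were sought by the Pearson correlation of log2 CPM over the 20 libraries, across all genes tested. The libraries share groups, runs and depth, so that the values are descriptions. ATP6 was most like ND5 (r = 0.986), ND4 (0.969) and ND3 (0.963), all complex I genes, then CYTB (0.946), the complex III gene, and COX3 (0.945). The most alike nuclear genes were AARA014535 (0.925), AARA008605 (0.915) and AARA010751 (0.914), for which no names were matched. ATP8 was most like AARA016512 (0.947), then ND4L (0.936), AARA001578 (0.927), AARA008278 (0.925) and AARA005865 (0.922). The correlation between ATP6 and ATP8 was 0.757. After each group's mean was subtracted, ATP6 was most like ND5 (0.937), ND4 (0.897) and ND3 (0.822), and ATP8 was most like AARA005981 (0.838), AARA003701 (0.832) and AARA010203 (0.821), while the correlation between ATP6 and ATP8 was 0.613. ND4 counts per ND4L count, from the other neighbouring pair with few counts in 1 gene, averaged 90.2 ± 29.5 for ASN, 31.0 ± 11.6 for CHW, 80.8 ± 21.5 for TOL, 22.3 ± 1.22 for SEK and 31.7 ± 7.26 for MOZ (mean ± SD of 4 libraries).

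Replicate 2 of ASN and of TOL had less ATP6 than the other replicates of their group, and no less ATP8 than the lowest of them. Relative to the mean of the other 3 replicates, ATP6 differed by -1.86 in ASN replicate 2 and -0.90 in TOL replicate 2 on the log2 CPM scale, and ATP8 by -0.08 and 0.59. In ATP6 each lay below its 3 fellow replicates, which ranged from 13.67 to 13.83 in ASN and from 13.31 to 14.24 in TOL, and in ATP8 each lay inside their range. The neighbours COX2 and COX3 differed by -0.24 and -0.20 in ASN replicate 2 and by 0.02 and 0.30 in TOL replicate 2. In ASN replicate 2 both lay just below the lowest fellow replicate, COX2 at 14.07 against 14.16 and COX3 at 14.60 against 14.73. In TOL replicate 2 both lay inside the range. Other genes, named here after their values were seen, were further down in both libraries: with the ASN library first, ND2 differed by -3.46 and -3.25, ND3 by -2.31 and -2.46, and the ribosomal RNA gene ASK67_gr01 by -2.26 and -1.97. The other ribosomal RNA gene, ASK67_gr02, which had far higher levels, differed by -0.03 and 0.15, inside the range of its fellow replicates in each. ND5 and ND4, the genes most like ATP6, were also lower, by -1.60 and -0.66 for ND5 and by -1.10 and -0.20 for ND4. In TOL replicate 2, however, ND4 lay inside the range of its fellow replicates, at 11.41 against 11.01 to 12.11. ND6 was higher in both, by 0.98 and 1.14. What these values have to do with the ATP6 values was not tested. Without these 2 libraries ATP6 was higher in the field populations than in the strains by a log2 fold change of 3.24 and ATP8 by 1.75, and the numbers of comparisons called were again 8 and 4.

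**Figure D5:**
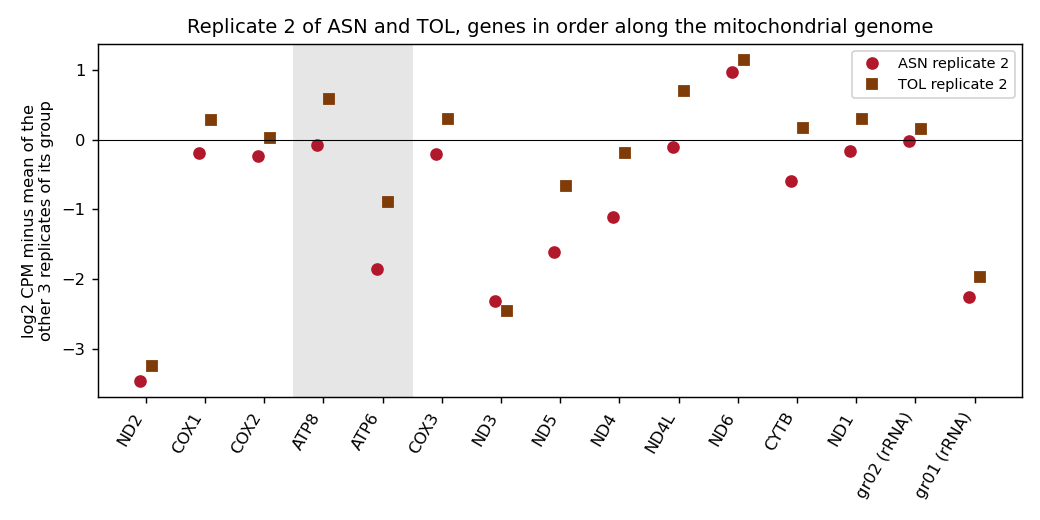
Log2 CPM in replicate 2 of ASN (circles) and TOL (squares) minus the mean of the other 3 replicates of its group, for the 13 mitochondrial protein-coding and 2 ribosomal RNA genes in their order along the genome, with ATP8 and ATP6 shaded. ATP6 stands at -1.86 and -0.90 between ATP8, at -0.08 and 0.59, and COX3, at -0.20 and 0.30.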

How the data were processed

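The authors deposited a table of whole-number counts per gene, taken as not normalized because all values are whole and library totals differ. Per the labels' protocols, libraries were polyA-selected and strand-specific, with paired reads of 125 bp trimmed by the sequencing facility. The submitters' processing notes name FastQC 0.11.4, HISAT2, Cufflinks, SAMtools 1.5 and HTSeq 0.9.0. The sources used here name no genome build, annotation or counting mode, so no coordinates, lengths or length-scaled levels are given. Names came from RefSeq's table of AaraD3, which matched all 37 mitochondrial and 0 of 13830 nuclear identifiers, so markers of tissues or cell types could not be checked.

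Genes were kept with filterByExpr by group. One edgeR 4.0.16 quasi-likelihood fit (R 4.3.3) with TMM scaling covered 5 groups and no covariates, with p-values adjusted over 11018 genes. The common biological coefficient of variation was 0.189. The SE is the size of the log2 fold change over the square root of F, and log2 CPM used a prior count of 2. Ratios and shares were compared by exact permutation tests, adjusted over 10 comparisons per measure. The edgeR test was checked on simulated data. Intervals cover counting error only, as reads carry no stated molecular identifiers. Replicates in a group differed by a chi-square per degree of freedom of at least 22.5. Named genes are the members, the list of 11 mitochondrial genes with the flanking COX2 and COX3 and its extremes, and the genes most alike. Members and lists were chosen with earlier results of these data known. Alternatives were other scalings, filters and thresholds, DESeq2 1.42.0, limma 3.58.1, run and replicate number as covariates, single runs, and leaving out each library. Leaving out replicate 2 of ASN and of TOL together was chosen after seeing the data.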

Additional observations from a re-analysis of the deposited data

Results flagged for a closer look

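ASN replicate 2 lay far from the other ASN libraries in 3 measures and TOL replicate 2 in 1, by the gap to the nearest library over the range of the group, which passed Dixon's 95% critical value for 4 samples. ASN replicate 2 had an ATP6 log2 CPM of 11.91, where its fellow replicates had 13.67 to 13.83. Its log2 ratio of ATP6 to ATP8 counts was 9.02, where theirs were 10.65 to 10.91, and its ATP6 share of mitochondrial protein-coding counts was 3.23%, against 8.66% to 8.88%. In TOL replicate 2 that share was 4.10%, against 7.92% to 8.60%. In all 25 groups of 4 values were examined, of which chance marks about 1 in 20, and measures of 1 library that share ATP6 are not independent.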

How the results depend on the processing

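ATP6 was called in 7 or 8 and ATP8 in 4 or 5 of the 10 comparisons on leaving out 1 library, in 6 to 8 and in 4 under the other alternatives. With library totals alone the median over all genes in field populations vs strains was -0.33 on the log2 scale, and 284 genes were called higher and 619 lower, where TMM gave 431 and 201. There ATP6 was at 2.77 and ATP8 at 1.47, and ATP8 in ASN vs SEK turned to -0.10. In that comparison of means 632 genes were called, against 4722 with no fold requirement and 414 with replicate block and run.

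Some differences that were not called changed sign on leaving out 1 library. Such values ranged for ATP8 from -0.11 to 0.64 in ASN vs SEK and from -0.68 to 0.23 in CHW vs SEK, and for ATP6 from -0.020 to 0.67 in CHW vs SEK and from -0.37 to 0.11 in ASN vs TOL. Between the CHW runs the differences ranged from -1.24 to 0.79 for ATP6 and from -1.09 to 0.94 for ATP8, and the log2 ratio in ASN vs TOL from -0.23 to 0.59. The number of ratio comparisons that passed ranged from 0 to 7, and was 0 for medians. For the ATP6 share it ranged from 0 to 6, and was 7 without both replicates 2 and 7 as a percent of all counts. As a percent of all counts, a denominator of which mitochondrial protein-coding genes hold unequal parts between groups, the ATP6 share in MOZ vs SEK turned to -0.0603 points and passed (exact permutation test, adjusted p 0.0408). The ATP8 share turned to 0.000162 in TOL vs SEK and 0.000118 in ASN vs CHW. The ATP6 calls in CHW vs MOZ and MOZ vs SEK were lost in the test against a fold of 1.5 (adjusted p 0.0927 and 0.219, edgeR).

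With a replicate block the log2 fold change in field populations vs strains was 3.01 for ATP6 and 1.75 for ATP8, with 8 and 4 comparisons called, and with block and run 2.96 and 2.15, with 7 and 4. The labels do not say that a number marks a shared batch, and 8 of 40 correlations between same-numbered libraries exceeded 0.1, so the libraries were not treated as paired. Yet 12 of 20 libraries correlated best with one of their own number, and the highest correlation was 0.53 (SEK and TOL replicate 1), a hint of pairing from the data, not the design. ATP8 counts limit the ratio in MOZ most.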
